A study of Mus musculus with 25 samples.

Results

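Long noncoding RNAs (lncRNAs) are long transcripts that are not translated into protein. They are read from genes of their own, from the strand opposite a coding gene, or from within a coding gene as an intronic or unspliced transcript. The mouse liver restores its mass after partial hepatectomy (PHx), the surgical removal of 2/3 of the organ, mainly by division of the remaining hepatocytes, and cell cycle genes are known to be transcribed strongly in that phase. The transcripts described here are the putative lncRNAs that the study listed as changed after PHx in the rows at hand, in its clusters 1, 2 and 3. Of 224 distinct probes marked ncRNA in these rows, 1 probe of LncPHx2 and 6 probes of Malat1 were set aside, which left 217 members among the 35979 probes of the array that held values. Cluster 1 holds 29 of them, cluster 2 holds 81, cluster 3 holds 100, and 7 stand in both cluster 2 and cluster 3. The putative lncRNAs of the other clusters were not analysed here.

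The mice were Balb/c males, 8 weeks old, and RNA of their livers was hybridised to a single-colour array with probes for mRNAs and putative lncRNAs, 1 array for each of 25 livers. The groups were PHx livers taken 4, 12, 36 or 72 hours later and sham operated livers, with 5 mice in each. All 5 sham livers are labelled 4 hours after surgery, so a later PHx group differed from sham in PHx and in the hours since surgery, and these cannot be told apart. The values are the log2 of the deposited intensities, and a difference of 1 on this scale is a 2-fold difference. The median intensity of an array was 97.7 to 103, and arrays of 1 group correlated with r of 0.981 to 0.996 over all probes. In whole liver, fewer cells of a type and less RNA per cell cannot be told apart. Markers of hepatocytes (F2, F9, Lbp, Crp, Ppara and Cpt1a), stellate cells (Col14a1), endothelial cells (Clec1b) and cholangiocytes (Anxa4) all gave signal on these arrays, and every one of these 9 probes was itself chosen by the study. Of the 6 hepatocyte markers, 5, 3, 6 and 6 were lower than sham by the limma test at 4, 12, 36 and 72 hours. Their differences from sham ranged over -0.81 to -0.24 (PHx 4 h), -1.29 to -0.14 (PHx 12 h), -1.61 to -0.34 (PHx 36 h) and -1.96 to -0.19 (PHx 72 h), with F2 nearest to sham at each time. The mean log2 level of the 6 markers was 13.18 to 13.47, 13.10 to 13.53, 12.71 to 13.12 and 12.76 to 12.98 on the PHx arrays of these times, and 13.82 to 14.01 on the sham arrays. Relative to sham, Col14a1 was at 0.05, -0.93, -0.71 and -0.26 at these times, and Clec1b at -0.30, -0.70, -0.67 and -0.63. Anxa4 was at -0.28, -0.53, -0.55 and -0.23, lower by the test at 12 and 36 hours. The part of such shifts in the values of the members was not tested.

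The study chose the 217 probes by a regression over these same 25 arrays, so the levels below describe the members and are not tests of them. The label putative was checked against current gene annotation. For 119 members a gene was found in the RefSeq table of GRCm38.p6, and the gene was protein coding for 96 of them and a lncRNA gene for 23. The other 98 had no match. Of the 96 members matched to a protein-coding gene, 20 also had an mRNA probe of that gene among the rows at hand and 76 had none. In 8 members the accession is that of a RefSeq mRNA (NM), which is a coding transcript or was one when the array was designed. Such members are called here by their accession, with the gene in parentheses. Which strand or exon a probe reads was not determined, as the probe sequences were not used here. A member said to be in a coding gene is matched to it by an identifier of its row and no more. For 4 members that identifier was a RefSeq accession, and the row lists another name.

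Most members were lower after PHx than in sham livers. Of the 217 members, 188 stand in cluster 2, cluster 3 or both, which the paper describes as downregulated. The paper's upregulated clusters other than cluster 1 were not analysed here. The predominant direction thus describes the clusters at hand and not the study's putative lncRNAs as a whole. The group with the highest mean was sham for 176 of the 217 members and PHx 36 h for 29. Among the 29 members of cluster 1 the median difference from sham was -0.03 at 4 hours, 0.13 at 12 hours, 1.02 at 36 hours and 0.46 at 72 hours, and 26 of them had their highest mean at 36 hours. Among the 88 members listed in cluster 2 the medians were -0.45, -0.64, -0.45 and -0.47 at these times. Among the 107 members listed in cluster 3 they were -0.30, -0.45, -0.58 and -0.61. The median over all probes of the array lay between -0.01 and 0.00 at each time. The mRNA rows of the same clusters had medians at 36 hours of 1.11 in cluster 1 (401 mRNAs), -0.55 in cluster 2 (471 mRNAs) and -0.71 in cluster 3 (610 mRNAs).

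**Figure D1:**
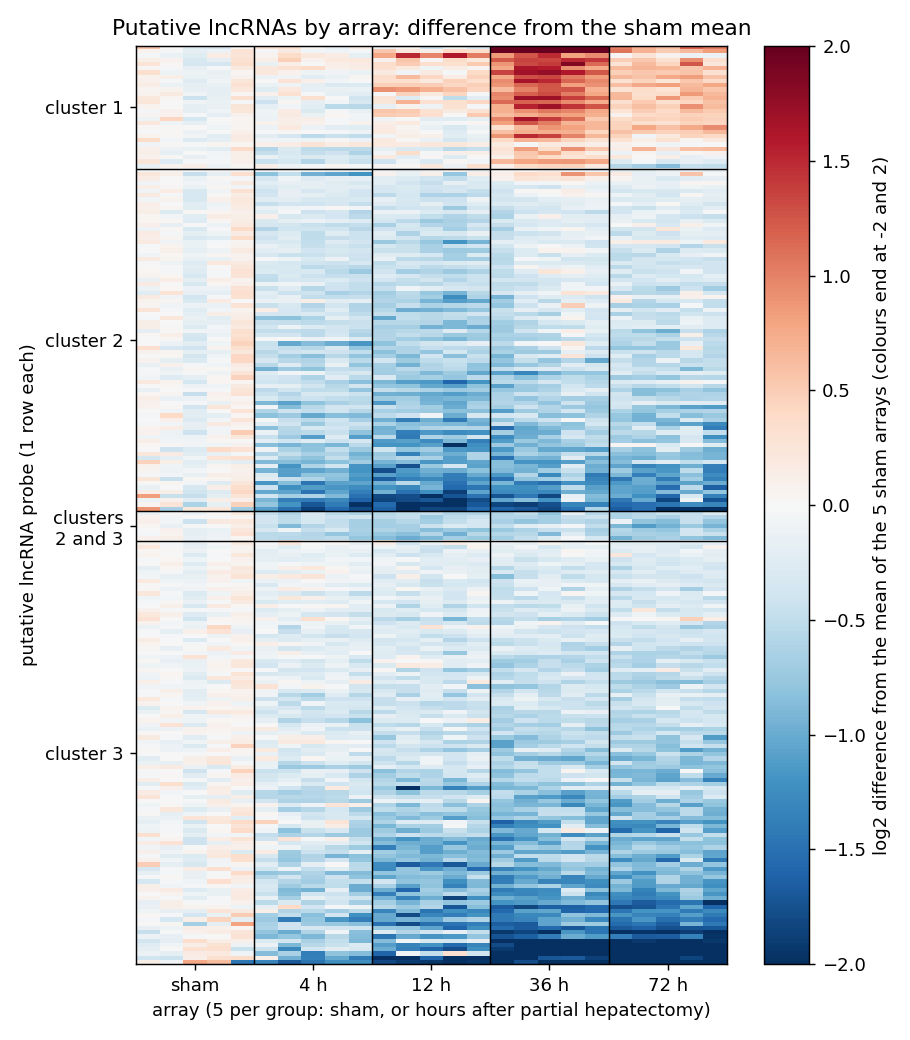
Heat map of the 217 putative lncRNA probes (rows, by cluster) on 25 arrays (columns, 5 for each group), coloured by the log2 difference from the mean of the sham arrays. The rows of cluster 1 are highest at PHx 36 h, where the median difference was 1.02, and most of those of clusters 2 and 3 are below sham at each time.

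The mean over the members of a cluster is given at the time when it lay farthest from sham. The members were chosen for such a change on these arrays, so a gap at that time is no test. For cluster 1 the mean was 8.11, 8.52, 8.54, 8.36 and 8.16 on the PHx 36 h arrays and 7.43, 7.32, 7.16, 7.20 and 7.47 on the sham arrays, so the groups did not overlap. At PHx 4 h (7.16 to 7.37) and PHx 12 h (7.42 to 7.58) the mean of cluster 1 overlapped sham. For cluster 2 it was 7.32, 7.26, 7.28, 7.16 and 7.31 at PHx 12 h and 8.05, 7.98, 7.79, 7.97 and 8.17 in sham livers. For cluster 3 it was 7.42, 7.43, 7.46, 7.54 and 7.42 at PHx 72 h and 8.21, 8.20, 8.11, 8.28 and 8.32 in sham livers. Sham replicate 5 had the highest of the sham means in all 3 clusters.

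Counts of members that passed the limma test at an adjusted p under 0.05 are given beside the share of all probes that did, and nothing is read from them, since the members were chosen on these contrasts. Above sham there was 1 member at 4 hours, 10 at 12 hours, 28 at 36 hours and 21 at 72 hours, where 6.12%, 16.3%, 13.6% and 15.1% of the probes on the array were higher. Below sham there were 122 members at 4 hours, 162 at 12 hours, 157 at 36 hours and 159 at 72 hours, where 6.35%, 15.1%, 12.5% and 13.1% of the array was lower. From one time to the next, 18 members were higher and 58 lower at PHx 12 h than at PHx 4 h (14.0% and 13.2% of all probes), 53 higher and 24 lower at PHx 36 h than at PHx 12 h (14.4% and 15.0%), and 12 higher and 34 lower at PHx 72 h than at PHx 36 h (5.37% and 4.54%). These comparisons share their sham arrays or a PHx group. Over the whole time course 174 members passed the F test and had group means that accounted for 0.6 or more of the variance (R-squared), as did 32.2% of all probes. Just inside that limit were AK172035 (0.604) and AK019610 (0.605), and just outside it AK017401 (0.593) and IVGNm08847 (0.591). The lowest R-squared was 0.249, for AK078975, followed by AK083266 (Zfp280d) with 0.327 and AK020109 (Slc38a9) with 0.330. AK078975 differed from sham by -0.12, -0.22, -0.19 and -0.18 at the 4 times, and it and AK083266 were the only members that passed the test against sham at no time.

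The 23 members in annotated lncRNA genes are taken first. Of these, 9 stand in cluster 1 and 14 in cluster 2, cluster 3 or both. Their median difference at 36 hours was 0.96 in cluster 1, with a range of 0.50 to 2.34, and -0.54 in the other clusters, with a range of -1.43 to -0.19. The highest was Gm28453, a gene model on chromosome 7 listed as 1700010N08Rik. Gm28453 had log2 intensities of 9.41, 10.07, 9.95, 9.62 and 9.69 at PHx 36 h and of 7.47, 7.37, 7.22, 7.29 and 7.68 in sham livers. Every PHx 36 h array was above every sham array, by 2.34 ± 0.12 (SE) in the means. At 4, 12 and 72 hours the difference was 0.00, 0.33 and 0.75. Over the 25 arrays, the member most like Gm28453 was BC004707 (Cbx5), with r = 0.96.

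Lockd lies next to Cdkn1b, the gene of the cell cycle inhibitor p27. In PHx 36 h livers Lockd had 6.57, 7.44, 7.39, 6.73 and 6.55, against 5.83, 5.79, 5.65, 5.79 and 5.98 in sham livers. The groups did not overlap and differed by 1.13 ± 0.14 (SE), and the difference was 0.64 at 72 hours. The sham level was dim, below the 30th percentile of all probe means (6.09). With levels under that value set to it, the difference at 36 hours was 0.84. The mRNA probe of Cdkn1b (AK162146), which the study placed in cluster 2, differed from sham by -0.58 at PHx 36 h, with 9.11, 8.93, 9.44, 8.89 and 8.77 at PHx 36 h and 9.91, 9.55, 9.58, 9.49 and 9.50 in sham livers. The neighbours thus lay on opposite sides of sham, and their r over 25 arrays was -0.03.

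Snhg14 is the long transcript that runs antisense to Ube3a, a ubiquitin ligase gene of the imprinted Prader-Willi and Angelman region. The Snhg14 probe had 8.15, 8.51, 8.76, 8.77 and 8.22 at PHx 36 h and 7.58, 7.59, 7.35, 7.34 and 7.73 in sham livers. All PHx 36 h arrays were above all sham arrays, by 0.96 ± 0.13 (SE) in the means, and the PHx 12 h arrays already were, by 0.70. The difference was -0.09 at 4 hours and 0.42 at 72 hours. The mRNA probe of Ube3a (NM_173010) differed from sham by -0.68 at 12 hours and -0.35 at 36 hours, with an r of -0.24 to Snhg14. Of the protein-coding genes that overlap or lie within 10 kb of the 20 lncRNA genes, Cdkn1b and Ube3a were the only ones with an mRNA probe among the rows at hand.

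5730408K05Rik was 1 of 2 members of cluster 1 with their highest mean at 12 hours. It had 9.97, 10.69, 10.17, 10.79 and 10.22 at PHx 12 h, 10.04, 10.45, 10.68, 10.00 and 10.14 at PHx 36 h, and 9.17, 9.05, 8.95, 9.34 and 9.44 in sham livers. Its 12 hour and 36 hour arrays overlapped each other and lay above all sham arrays, by 1.18 and 1.07 in the means, and the difference was 0.03 at 72 hours. It was the only member at least 2-fold above sham at 12 hours. Mir99ahg, which hosts a cluster of miRNAs, stayed high to the last time. Its probe AK048031 differed from sham by -0.10, -0.07, 0.67 and 0.70 at 4, 12, 36 and 72 hours and its probe AK083771 by -0.03, 0.00, 0.63 and 0.54. 9230114K14Rik lay below sham first and above it later, with -0.49, -0.36, 0.59 and 0.46.

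The promoters of Gm28453 and Lockd are shown with that of Hells, a chromatin remodelling gene whose name is carried by AK021390, the highest member at 36 hours, because these 3 members had r of 0.90 to 0.96 with each other over the 25 arrays, and beside them the promoter of 4930502E09Rik, the lncRNA gene farthest below sham. Each window runs 250 bases before to 50 bases after the annotated start, is read 5′ to 3′ on the gene's strand, and comes from RefSeq (GRCm38.p6). All 4 genes lie on the plus strand, at chr7:38379133-38379432 (Gm28453), chr6:134928842-134929141 (Lockd), chr19:38930740-38931039 (Hells) and chr11:84828928-84829227 (4930502E09Rik). Capitals mark matches on either strand to the CCAAT box (CCAAT), the cell cycle homology region (TTTGAA), the E2F site (TTTCCCGC, TTTCGCGC, TTTGCCGC or TTTGGCGC) and the cyclic AMP response element (TGACGTCA).
Gm28453: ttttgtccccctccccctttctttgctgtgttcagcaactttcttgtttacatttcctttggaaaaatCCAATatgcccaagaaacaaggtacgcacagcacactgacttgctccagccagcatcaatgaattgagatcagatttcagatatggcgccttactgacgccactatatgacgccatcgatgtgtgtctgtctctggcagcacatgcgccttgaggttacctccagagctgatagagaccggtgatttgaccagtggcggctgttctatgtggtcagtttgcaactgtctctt
Lockd: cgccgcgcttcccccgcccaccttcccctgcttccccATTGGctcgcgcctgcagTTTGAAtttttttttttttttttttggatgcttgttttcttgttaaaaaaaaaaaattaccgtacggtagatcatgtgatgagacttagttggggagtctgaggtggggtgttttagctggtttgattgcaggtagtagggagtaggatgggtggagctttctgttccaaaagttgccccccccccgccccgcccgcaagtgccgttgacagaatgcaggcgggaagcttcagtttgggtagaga
Hells: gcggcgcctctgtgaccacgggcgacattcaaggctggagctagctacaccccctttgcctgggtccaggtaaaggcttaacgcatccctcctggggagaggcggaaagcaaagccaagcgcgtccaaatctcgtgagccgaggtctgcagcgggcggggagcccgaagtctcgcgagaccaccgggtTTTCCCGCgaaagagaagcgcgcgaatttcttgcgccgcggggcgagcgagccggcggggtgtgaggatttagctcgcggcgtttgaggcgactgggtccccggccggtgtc
4930502E09Rik: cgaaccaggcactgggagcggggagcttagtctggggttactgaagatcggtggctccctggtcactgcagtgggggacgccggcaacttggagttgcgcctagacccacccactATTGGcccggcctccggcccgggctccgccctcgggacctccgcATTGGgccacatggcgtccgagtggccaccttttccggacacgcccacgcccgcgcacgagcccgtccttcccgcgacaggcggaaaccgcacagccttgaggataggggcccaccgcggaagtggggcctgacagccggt
The Hells window holds 1 E2F match, which starts 62 bases before the start site that the window is placed on. That site lies inside the annotated Hells gene, which begins upstream of the window at 38930262. The Lockd window holds a TTTGAA and a CCAAT match, the Gm28453 window holds a CCAAT match, and the 4930502E09Rik window holds 2 CCAAT matches. Of 112 gene symbols among the members, 98 had at least 1 window in the table, 122 windows in all. Most of these genes are protein coding, and whether the transcript a member reads begins at such a start was not determined. The windows of clusters 1, 2 and 3 belong to 16, 35 and 51 genes. CCAAT was found in 12 of 22 windows of cluster 1, 21 of 47 of cluster 2 and 19 of 60 of cluster 3, or 54.5%, 44.7% and 31.7%, against 37.4% of all 32851 windows. TTTGAA was in 13.6%, 12.8% and 20.0% of these windows, against 17.9% of all windows. The E2F letters were in 1, 0 and 1 of the windows of the 3 clusters, against 2.26% of all windows, and the cyclic AMP response element was in 1, 2 and 2, against 1.79%. A match describes the letters only.

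Among the lncRNA genes below sham, 4930502E09Rik was the lowest. It had 7.61, 7.73, 7.09, 7.17 and 6.99 at PHx 72 h and 10.13, 8.61, 9.48, 9.50 and 8.55 in sham livers. All PHx 72 h arrays were below all sham arrays, although the sham arrays were spread widely, and the difference was -1.93 ± 0.25 (SE). It was already -1.57 at 4 hours and -1.79 at 12 hours. 2210408F21Rik had its lowest level at 12 hours, at 9.39, 8.97, 9.21, 8.94 and 9.62 in PHx livers and 11.12, 10.46, 10.31, 10.58 and 10.69 in sham livers, a difference of -1.41, and it was at -0.74 and -0.83 at 36 and 72 hours. Firre, an X-linked lncRNA of nuclear organisation, was lower late, at -0.43 at 36 hours and -0.76 at 72 hours, with -0.04 at 4 hours. Particl, which overlaps the methionine adenosyltransferase gene Mat2a, was lower early and near sham at the end, with -0.43, -0.51, -0.33 and -0.03. Kcnq1ot1, the antisense transcript that silences genes around Kcnq1 on the paternal chromosome, was the only one of 17 well-known lncRNAs looked for by name that the rows at hand list. Its differences were small, at -0.19, -0.32, -0.19 and -0.26, and its 5 arrays at 12 hours (6.22 to 6.50) were below its 5 sham arrays (6.61 to 6.72).

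A330023F24Rik, listed as C030002C11Rik, holds the hairpins of Mir29b-2 and Mir29c on its own strand. The miR-29 family is known for repressing collagen and other matrix genes. The mature miRNAs are shown with their seed, bases 2 to 8, in capitals, since the host transcript was among the lncRNA genes farthest below sham. They lie at chr1:195037091-195037113 and chr1:195037600-195037621 on the plus strand (RefSeq, GRCm38.p6).
mmu-miR-29b-3p: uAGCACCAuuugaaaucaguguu
mmu-miR-29c-3p: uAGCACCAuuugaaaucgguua
Both share 1 seed. The host probe AK036134 had 7.80, 7.50, 7.51, 7.82 and 7.21 at PHx 72 h and 9.05, 9.0, 9.14, 9.18 and 9.46 in sham livers. No PHx array reached a sham array at any of the 4 times, and the differences were -0.80, -1.11, -1.37 and -1.60 at 4, 12, 36 and 72 hours. The other probe of the gene, AK045637, was dim at 36 and 72 hours and differed by -0.14, -0.17, -0.32 and -0.29. The 2 probes thus agreed in direction and not in size, with r = 0.75 between them. The probes were matched to the host gene, and the miRNAs themselves were not measured here.

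**Figure D2:**
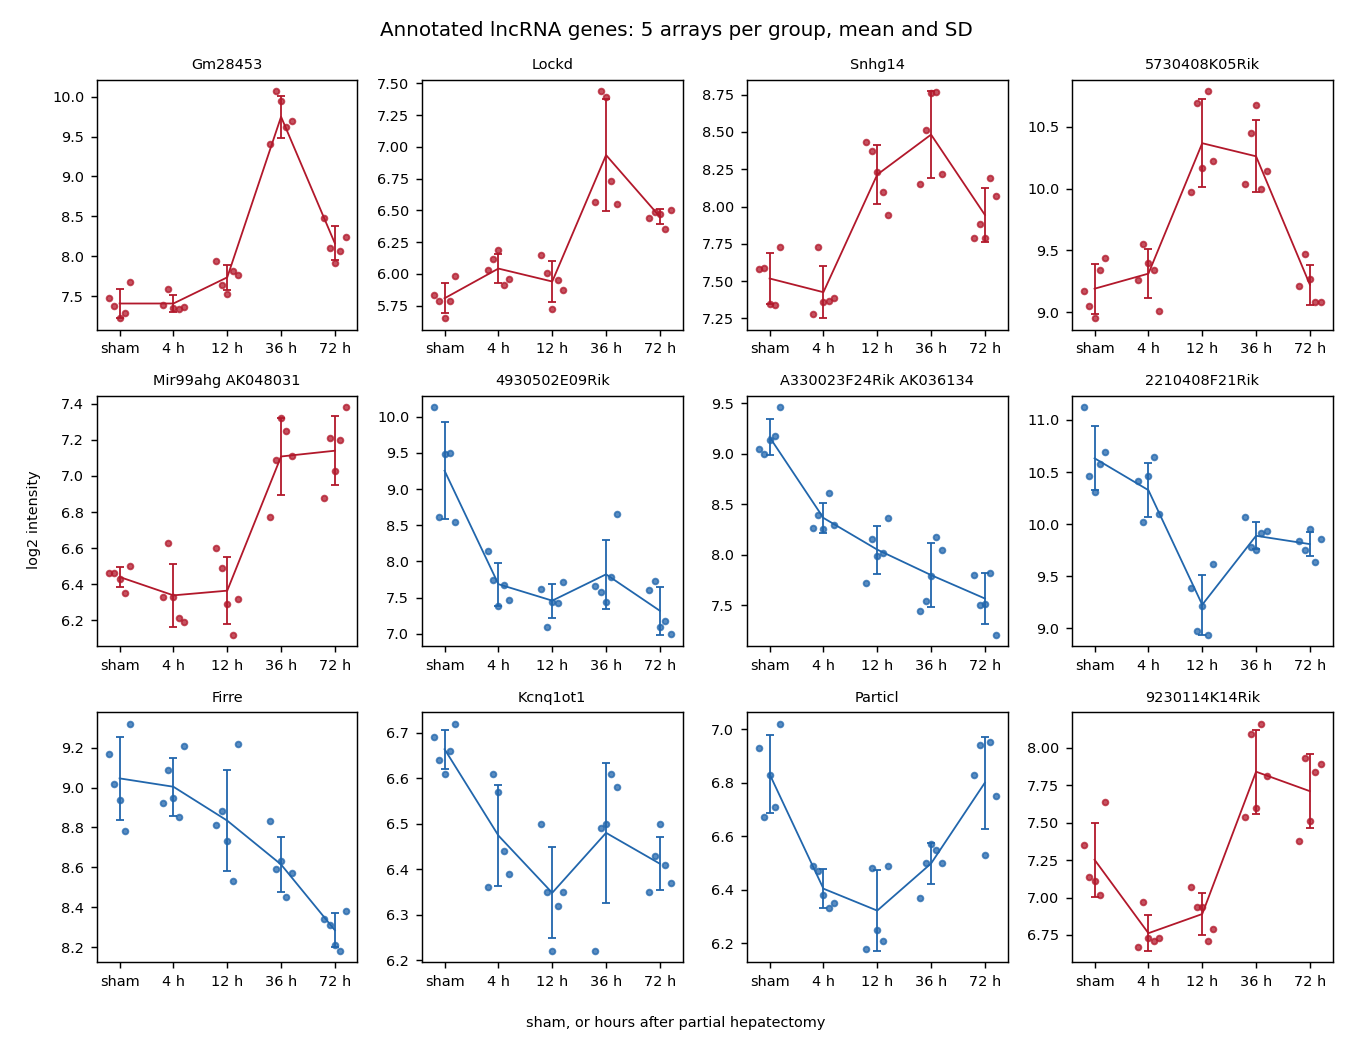
Log2 intensity of 12 members in annotated lncRNA genes on each of 5 arrays for sham and for each time after PHx (4, 12, 36 and 72 hours), with the mean and SD as lines and bars (red for cluster 1, blue for clusters 2 and 3). Gm28453 stands at 9.41 to 10.07 at 36 hours, and 5730408K05Rik is high at 12 and 36 hours. The probe AK036134 of A330023F24Rik is below sham from 4 hours on, and the other probe of that gene is not drawn.

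Among the members of cluster 1 that carry a coding gene's name, several lie in genes of chromatin and DNA replication. AK021390 (Hells) had 8.20, 9.16, 9.35, 8.73 and 8.57 at PHx 36 h and 6.65, 6.12, 5.80, 5.75 and 6.12 in sham livers. The difference was 2.72, and 2.71 with dim levels set to the 30th percentile. BC004707 (Cbx5, heterochromatin protein 1 alpha) had 10.50, 10.82, 10.91, 10.75 and 10.39 at PHx 36 h and 9.47, 9.04, 9.05, 9.0 and 9.18 in sham livers, a difference of 1.53 ± 0.11 (SE) with no overlap. AK080078 (Dtymk, which makes thymidine diphosphate for DNA synthesis) was 1.25 higher at 36 hours and AK131677 (Gmnn, geminin, the inhibitor of replication licensing) 0.89 higher, or 0.75 with dim levels set to the 30th percentile, since it was dim in sham livers and at 4 and 12 hours. AK131677 and AK021390 were each the member most like the other, with r = 0.96. AK050988 (Nelfa, a subunit of the negative elongation factor) was 1.33 higher. Members without a coding gene's name reached the same size, with 1.36 for AU044698 and 1.38 for IVGNm08429. At 36 hours 16 of the 29 members of cluster 1 were at least 2-fold above sham. At 72 hours no member of the cluster was, and the highest difference was 0.90.

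A few members of cluster 1 left its pattern. AK011873 (Cct4, a chaperonin subunit) was at 0.31 at 36 hours and at -0.61 at 72 hours, where its arrays did not overlap those of sham. NM_025677 (Tsen15, a subunit of the tRNA splicing endonuclease), AK033958 (6720489N17Rik) and BC020125 (D030056L22Rik) were below sham at 4 hours, at -0.43, -0.46 and -0.40, and above it at 36 hours, at 0.78, 0.40 and 1.09. Of the other members with an NM accession, NM_028387 (Macrod2) of cluster 1 was at 1.01 at 36 hours and NM_053265 of cluster 2 at -0.84 at 72 hours, each in the direction of its cluster. IVGNm09381 was at -0.28 at 4 hours and 0.32 at 36 hours. AK082156, the 1 member called above sham at 4 hours, was dim in every group, with 5.99 to 6.16 at PHx 4 h and 5.82 to 5.94 in sham livers. Outside cluster 1, 3 members had their highest mean at 36 hours, among them AK008856 (Ralgps2), 0.46 above sham with overlapping arrays, after -0.91 at 4 hours.

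In cluster 2, whose members were farthest from sham at 12 hours, the lowest was AK145182 (Met, the receptor of hepatocyte growth factor). AK145182 had 7.86, 6.51, 7.33, 6.90 and 7.72 at PHx 12 h and 9.48, 9.68, 8.79, 9.26 and 9.88 in sham livers. The groups were apart at all 4 times, with differences of -1.42, -2.15, -1.63 and -1.42. C730029A08Rik was at -1.94 at 12 hours, with 7.77, 7.84, 7.92, 7.02 and 7.84 in PHx livers and 9.53, 9.71, 9.41, 9.74 and 9.73 in sham livers, and at -0.83 at 36 hours. 1700060L04Rik was at -1.76 and IVGNm34348 at -1.39 at 12 hours. BC025841 (Plekha6) was at -1.41 at 12 hours, with PHx arrays of 7.43, 7.42, 7.53, 6.26 and 7.38 against 8.65, 8.63, 8.56, 8.52 and 8.69 in sham livers, and it was at -0.09 at 72 hours. Replicate 4 lay far below the other arrays of that group, and without 1 array the value came as near to sham as -1.17. Of the 81 members of cluster 2 alone, 51 had their lowest mean at 12 hours.

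In cluster 3, farthest from sham at 72 hours, the lowest member was BC027677 (Nrg4, a ligand of the epidermal growth factor family). BC027677 had 7.49, 7.75, 8.36, 8.69 and 8.16 at PHx 72 h and 10.83, 10.76, 11.11, 11.14 and 10.86 in sham livers, a difference of -2.85 ± 0.26 (SE). It was nearly as low at 36 hours, at -2.72, while its arrays at 12 hours (9.34 to 11.26) overlapped those of sham. AK021294 followed the same course, with -0.54, -0.37, -2.43 and -2.10, and had r = 0.94 with BC027677. AK011144 (Nrp1, a co-receptor of vascular endothelial growth factor and semaphorins) had 8.14, 8.07, 7.69, 8.77 and 7.95 at PHx 72 h and 10.21, 10.18, 10.75, 10.94 and 10.98 in sham livers, a difference of -2.49. 0610033M10Rik and IVGNm08394 were at -2.32 and -2.40 at 72 hours. Their r of 0.98 was the highest of any pair of members, and whether both probes read 1 transcript is not known here. AK044071 was at -2.34, with sham arrays of 9.26, 9.08, 9.91, 9.77 and 7.70. The last of these stood apart from the other sham arrays, and leaving out 1 array moved the value as far as -2.71. AK031148, listed as AW112037 and matched by RefSeq accession to Lpgat1 (a phospholipid acyltransferase), was at -2.15. Cluster 3 was less uniform in time than the others, with the lowest mean at 12 hours in 20, at 36 hours in 32 and at 72 hours in 47 of its 100 members.

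Grouped by the role of the coding gene they are named after, the members of most groups were lower after PHx. The groups were chosen with earlier results known and are described by counts beside the shares of all probes given above. Of the 188 members in cluster 2 or 3, 161, 157 and 158 were lower by the test at 12, 36 and 72 hours. Of all probes, 15.1%, 12.5% and 13.1% were lower at these times. A group drawn mostly from these clusters is thus lower by selection, and nothing is read from its direction about gene roles. The 8 members in genes of growth factor, cytokine and hormone signalling had a median of -0.59, -0.64, -1.0 and -1.19 at 4, 12, 36 and 72 hours. At 72 hours 7 of them were lower by the test. Beside Nrg4, Nrp1 and Met they include BC058551 (Il6st, the gp130 subunit shared by receptors of the interleukin-6 family), which had 10.74, 10.50, 10.63, 10.70 and 10.03 at PHx 72 h and 12.00, 12.29, 12.15, 12.14 and 12.25 in sham livers. Its arrays were below sham at all 4 times, at -0.51, -0.75, -1.0 and -1.65. AK138535 (Bmpr2, a receptor of bone morphogenetic proteins) was at -0.66, -0.96, -1.0 and -0.96. Least far from sham were BC042730 (Thrb, a thyroid hormone receptor), between -0.29 and -0.24, and AK031823 (Gnaq, a G protein subunit), between -0.53 and -0.07.

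**Figure D3:**
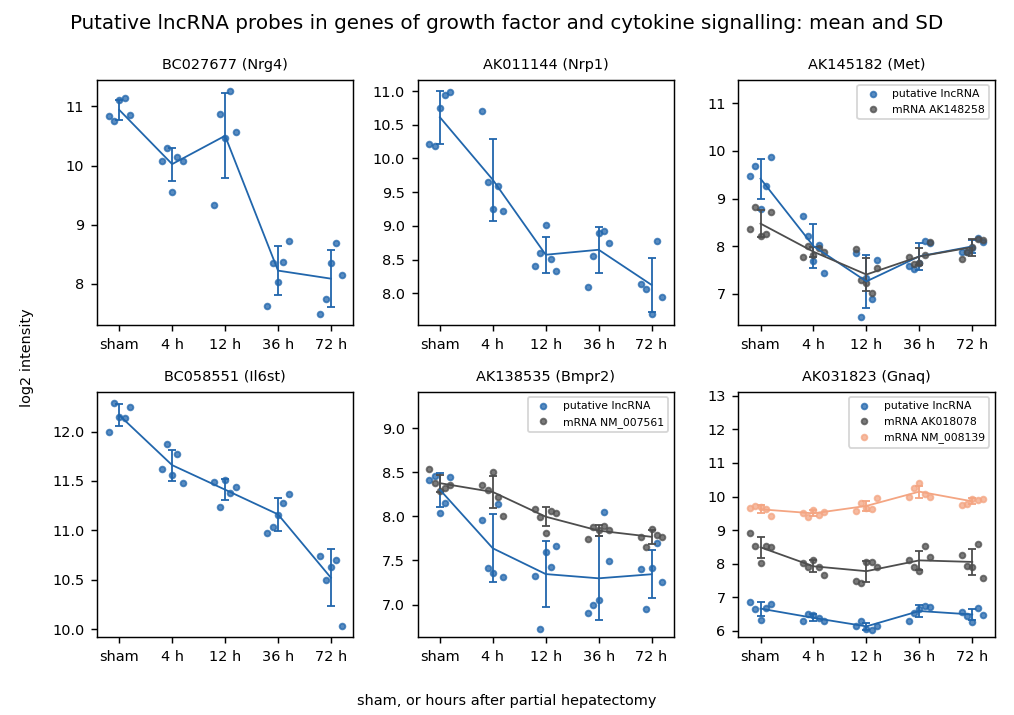
Log2 intensity of 6 putative lncRNA probes named after signalling genes (blue), with the mRNA probes of the same gene where listed (grey, orange), on 5 arrays for sham and for each time after PHx, with mean and SD. The probes named after Nrg4, Nrp1 and Il6st end farthest below sham at 72 hours (-2.85, -2.49 and -1.65), that of Met is lowest at 12 hours (-2.15), and levels of different probes are not comparable.

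All 10 members in genes of membrane traffic and the lysosome were lower by the test at 12, 36 and 72 hours, with medians of -0.82, -0.72 and -0.78. They include AK078219 (Tmem106b, a lysosomal membrane protein) at -1.52, AK013918 (Arl8b, a GTPase that positions lysosomes) at -1.27 and AK020301 (Cert1, the ceramide transfer protein) at -1.13, all at 12 hours. NM_025783 (Chmp3, of the endosomal sorting complex) was at -0.82 at 72 hours, and AK045247 (Snx10, a sorting nexin), dim at 36 hours, at -0.91 there with its level set to the 30th percentile. The 5 members in genes of kinase, phosphatase and GTPase signalling had medians of -0.35, -0.84, -0.70 and -0.70. They were led by AK144665 (Cab39, a scaffold of the LKB1 kinase) at -1.13 at 72 hours and AK081521 (Hipk3) at -1.01 at 12 hours. AK082185 (Snrk) was at -0.89 at 12 hours. Among 8 members in RNA processing and translation, AK012721 (Mettl1, a tRNA methyltransferase) was at -0.83 at 72 hours, and all 8 were lower at that time with a median of -0.69, from DV552370 (Ptbp3, a splicing regulator) at -1.10 and U48737 (Prpf4b, a kinase of the spliceosome) at -0.98 to AK031725 (Ago3, listed as Eif2c3) at -0.19. The 12 members in transcription factors and elongation had 1 higher and 7 lower at 36 hours, the higher one being AK050988 (Nelfa). AK013630 (Thap2) was at -0.97 there, and BC006792 (Creb3l2, a bZIP factor of the secretory pathway) at -0.96. The 8 members in chromatin and Polycomb genes were split, with AK021390 (Hells) and BC004707 (Cbx5) higher at 36 hours and 5 lower, among them AK132400 (Atxn7, a subunit of the SAGA complex) at -0.70 and AK050678 (Phc3, of the Polycomb repressive complex) at -0.59. Of the 5 in transport and metabolism 4 were lower at each time, with AK041253 (Car5b, a mitochondrial carbonic anhydrase) and AK013053 (Cpm, carboxypeptidase M) both at -1.19 at 12 hours. AK041253 was dim at that time, and its difference was -1.12 with the level set to the 30th percentile. AK004338 (Etnk1, an ethanolamine kinase) was at -1.16 at 72 hours, and AK042594 (Slc20a1, a phosphate transporter) at -0.54 at 36 hours. Both members in antigen presentation, AK086184 (B2m) and AK017289 (H2-D1), parts of the class I complex, were lower at all times, with their largest differences at -0.84 and -1.09. The 3 in protein folding did not move alike, with AK011873 (Cct4) described above, NM_026352 (Ppid, a cyclophilin) at -0.93 at 72 hours and AK077587 (Dnajb4) at -0.47 at 4 hours.

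For 20 members an mRNA probe of the same gene was listed as well, in 24 pairs, and the question was how alike the putative lncRNA and the mRNA were. Both probes of a pair were chosen for their change, so the correlations over the 25 arrays describe them and carry no test. The median r was 0.70 and the range 0.18 to 0.98. After the group means were taken out, the median was 0.30, and 19 of 24 pairs stayed above 0. With the group means left in, the mRNA probe was among the 100 probes most like the member out of the whole array in 9 pairs. With the group means taken out, the nearest place of an mRNA probe in that order was 197, for the pair of Hells. It was 252 for the pair of Paip1 and 652 for that of Met. The differences from sham had the same sign in 21 of 24 pairs at 4 hours, 23 at 12 hours, 23 at 36 hours and 21 at 72 hours. At 12 hours the member lay farther from sham than the mRNA probe in 17 pairs, and at 36 hours in 11. In 4 pairs both probes carry the same accession, and their median r was 0.89, against 0.66 for the others.

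The closest pair was AK021390 and the Hells mRNA (NM_008234), with r = 0.98 and 0.68 within groups. The mRNA probe was 4.02 above sham at 36 hours and the member 2.72. AK145182 and the Met mRNA (AK148258) had r = 0.89 and 0.64 within groups, and here the member was farther from sham at each time, with -2.15 against -1.07 for the mRNA at 12 hours. AK082861 (Paip1, a partner of the poly(A)-binding protein) and its mRNA had r = 0.87 and 0.67 within groups, and NM_025677 (Tsen15) and an mRNA probe of the same accession r = 0.91. The pair of Zmym5, a zinc finger gene, moved in the same direction with unequal sizes. The mRNA probe (NM_144842) was at -1.31, -1.76, -1.47 and -1.52 and the member AK165863 at -0.56, -0.64, -0.26 and -0.29. AK031823 in Gnaq stood out because its gene has mRNA probes in different clusters. AK031823 had 6.14, 6.30, 6.04, 6.03 and 6.13 at PHx 12 h and 6.84, 6.64, 6.32, 6.68 and 6.81 in sham livers. With the mRNA probe AK018078 of cluster 2 its r was 0.65, and with the mRNA probe NM_008139 of cluster 1 it was 0.18. NM_008139 was 0.53 above sham at 36 hours, with 10.00, 10.26, 10.40, 10.07 and 10.00 at PHx 36 h and 9.66, 9.71, 9.69, 9.63 and 9.41 in sham livers. Low correlations were also found for the pairs of Pcgf5 (0.25), Sfpq (0.27), Rragc (0.28) and Mphosph8 (0.33), in which the mean of both probes was below that of sham at every time. The mRNA probe of Sfpq passed the test only at 72 hours, that of Mphosph8 at 36 and 72 hours, that of Pcgf5 at all times but 12 hours and that of Rragc at all times but 36 hours. AK165215 (Ddi2, an aspartic protease) was at -0.73, -1.33, -1.13 and -1.27, with r = 0.60 to the mRNA probe. AK163088 (1810013L24Rik) was at -1.15 at 12 hours, with r = 0.66.

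**Figure D4:**
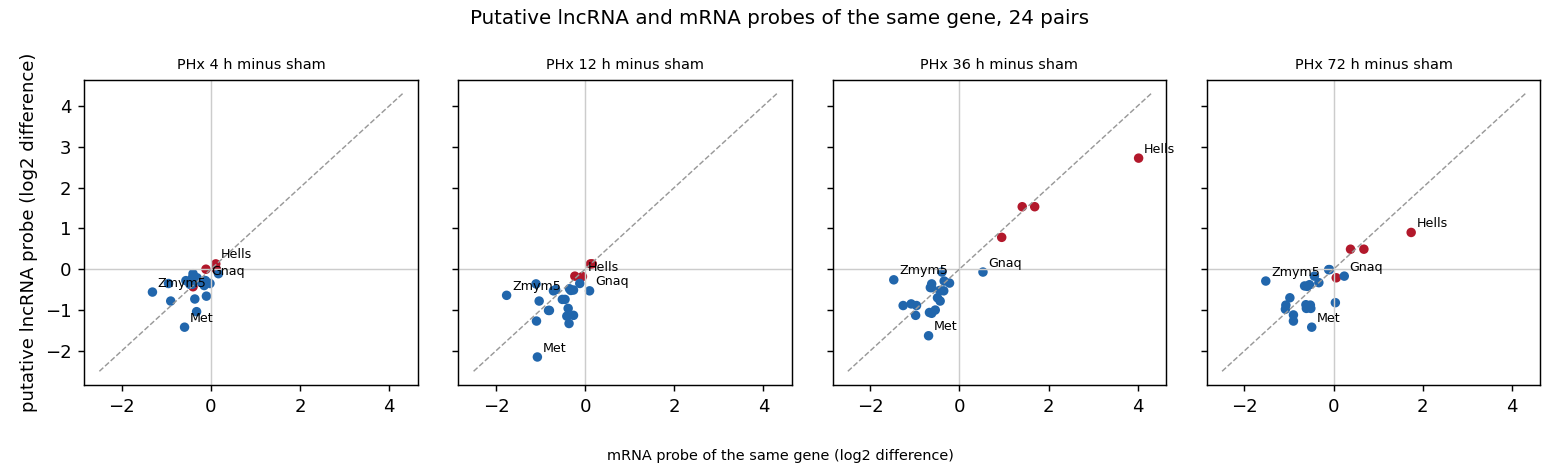
Log2 difference from sham of the putative lncRNA probe (vertical axis) against that of the mRNA probe of the same gene (horizontal axis) for 24 pairs, with a panel for each time after PHx (4, 12, 36 and 72 hours). Red points are members of cluster 1 and blue points those of clusters 2 and 3, and the dashed line marks equal differences. Hells lies far to the upper right at 36 hours (4.02 and 2.72), Met lies below the line at every time, and Zmym5 lies above it.

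In 9 genes 2 member probes could be set side by side. The probes agreed closely in Slx4ip (r = 0.95), Mir99ahg (0.94) and Raph1 (0.90), a regulator of the actin cytoskeleton, whose probes were at -0.97 and -1.21 at 72 hours. In 2810013P06Rik both probes were more than 2-fold below sham from 4 to 36 hours, at -1.20, -1.32 and -1.16 for AK012741 and -1.12, -1.01 and -1.26 for AK077895. The probes of Sfmbt1 are listed as 9330180L21Rik and were matched to the gene by RefSeq accession. Both were lower at 12 hours (-0.69 and -0.59) and near sham at 36 hours (-0.03 and -0.13). D1Ertd471e and A330023F24Rik had the lowest r, 0.75 each. Of the 9 genes, Phc3 and 1810053B23Rik had their probes in different cluster lists, with r = 0.82 and 0.83. The 7 members listed in both clusters 2 and 3 were lower than sham at each time, with medians of -0.52, -0.55, -0.55 and -0.60 and a range of -0.93 to -0.28. Among them, 4632427E13Rik was at -0.65 at 36 hours, AK079261 at -0.74 at 12 hours, and IVGNm08304, dim in all PHx groups, at -0.54 at 12 hours, or -0.48 with the dim level set to the 30th percentile. Over all 217 members, 65 were at least 2-fold from sham at some time, against 8.90% of all probes, 84 passed the test against sham at every time, against 3.92% of all probes, and 5 had a mean level under the 30th percentile of all probes.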

How the data were processed

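The authors deposited 1 table of linear intensity values for 25 single-colour arrays. The study's methods name the vsn package of Bioconductor for normalization, but the deposited intensity values are linear and so not on the scale that vsn gives, and how they relate to that step was not determined. Log2 was taken with no further normalization, background correction or filter, and 2 probes with no value on any array were set aside. The 217 members were read from the 1998 rows of the study's list at hand. The members, gene groups and motifs were chosen with earlier results of these data known. Current genes were matched by Entrez ID for 115 members and by RefSeq accession for 4. A model with 1 mean for each group was fitted to 35979 probes with lmFit and eBayes of limma 3.58.1 (R 4.3.3), and p-values were adjusted over all probes by the method of Benjamini and Hochberg. The fit was tested on simulated data. Nothing states that replicate numbers link livers. The number of arrays, 5 for each group, limits the precision.

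The members named in the text or in the closing section were taken, for each cluster, from the 6 members farthest from sham at the cluster's farthest time among those not dim in every group, the members with an mRNA probe, those with 2 probes or in 2 clusters, up to 4 of each gene group, up to 6 that passed the test against their cluster's direction, Kcnq1ot1 and the NM accessions, and the 3 with the lowest R-squared. The other lncRNA genes, IVGNm08847, AK017401, AK172035, AK021294, AK082156, AK008856, BC042730 and AK031725 were named after their values were seen. Some members with an mRNA probe or with 2 probes are given by the gene alone.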

Additional observations from a re-analysis of the deposited data

Results flagged for a closer look

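Over 91 named members in 5 groups each, 455 groups of 5 arrays, 26 groups held an array whose gap to the nearest other array took up most of the range of the group (0.71 or more of it). Chance alone gives such an array in about 1 of 20 groups. The members share the same arrays, so these groups are not independent of each other. All values are log2 intensities, and the nearest array of the same group follows each.

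At PHx 4 h, 5 members had 1 array above the rest. These were Gm28453 (7.59, next 7.39), BC025841 in Plekha6 (8.07, next 7.79), AK011144 in Nrp1 (10.71, next 9.65), D1Ertd471e AK014234 (7.75, next 7.06) and 9230114K14Rik (6.97, next 6.73). Below the rest were 0610033M10Rik (8.39, next 9.25) and AK086184 in B2m (7.33, next 7.53).

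At PHx 12 h all 5 such arrays were the lowest of their group. Replicate 4 was the array concerned for C730029A08Rik (7.02, next 7.77), BC025841 (6.26, next 7.38), BC027359 in Mphosph8 (6.29, next 6.59) and BC062259 in Ppp2r5e (5.91, next 6.47). Replicate 3 was the array concerned for AA617406 (6.04, next 6.25).

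At PHx 36 h the highest array stood apart for 4930502E09Rik (8.65, next 7.78), AK044071 (7.37, next 6.92), U48737 in Prpf4b (7.85, next 7.51), D1Ertd471e AK014234 (7.66, next 7.09) and AK144665 in Cab39 (8.48, next 7.68). The lowest stood apart for BC062259 (6.22, next 6.73) and AK013630 in Thap2 (7.76, next 8.14). Replicate 4 was the array concerned for U48737, D1Ertd471e, AK144665 and AK013630.

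At PHx 72 h the highest array stood apart for NM_025997 in Ramac (10.57, next 10.30), BC050266 in Phc3 (7.49, next 6.86) and AK041074 in Mef2a (7.42, next 6.58), and the lowest for NM_028201 in Slx4ip (7.44, next 7.74). Replicate 4 was the array concerned for BC050266 and AK041074, and replicate 1 for NM_025997 and NM_028201. In sham livers the highest array stood apart for U48737 (8.80, next 8.36), and the lowest for AK013053 in Cpm (6.97, next 7.36) and NM_009296 in Supt4a (12.10, next 12.40).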

How the results depend on the processing

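Counts of called members were recomputed with quantile normalization, 75th percentile centring, a normexp background correction with offset 50, a filter on dim probes, a limma fit with trend and robust settings, fits of only the 2 groups compared, the methods' t-test, a regression on time and no R-squared limit. Of 141 values, 134 stayed within 1.5 times of the reported count or within the spread of the pair correlations, and 7 did not. The single member above sham at 4 hours was not called (0 by limma) under normexp, under the dim probe filter or with only the 2 groups compared, and the methods' t-test unadjusted at 0.05 called 2. The methods' t-test after Benjamini-Hochberg adjustment called 78 members lower at 4 hours, against 122 by limma, and 21 lower at PHx 72 h than at PHx 36 h, against 34 by limma. Unadjusted, it called 19 higher at PHx 72 h than at PHx 36 h, against 12 by limma. All 364 values of the named members kept their direction and size within the limits set. Scaling moved the median of all probes by -0.03 to 0.02.

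Leaving out each of the 25 arrays in turn gave 0 to 1 members above sham at 4 hours, with 0 without PHx 4 h replicate 3, PHx 4 h replicate 5 or sham replicate 1. Members below sham numbered 85 to 127 for PHx 4 h, 152 to 166 for PHx 12 h, 145 to 161 for PHx 36 h and 148 to 170 for PHx 72 h, with 158 to 184 changed over the time course.

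The replicate numbers do not pair the livers by any source, and deviations of arrays with the same number correlated at -0.35 to 0.46. With the replicate block the counts below sham were 118, 165, 158 and 159 at 4, 12, 36 and 72 hours and 174 over the time course, and no count moved by over 1.5 times. The median correlation of the pairs was 0.60 to 0.78 over the alternatives. The number of arrays limits the precision.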
